A study of Mus musculus with 10 samples.

Results

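Radial glia are the neural stem cells of the developing cortex. The account concerns 9 genes commonly used to recognise them: Fabp7, Slc1a3, Prom1, Nr2e1, Ednrb, Mfge8, Ddah1, Pdpn and Veph1. The members were taken by gene name, and all 9 were found among the 53801 genes of the count table. Of these, 8 passed the expression filter and were tested among 16187 genes, and Pdpn did not.

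The samples were bulk RNA libraries from the dorsal brain of wild-type (WT) mouse embryos. StarTrack plasmids, reporters that mark the offspring of the cells they enter, were electroporated in utero on embryonic day 12. At embryonic day 14 cells were sorted as NG2+ (5 libraries) or GFAP+ (5 libraries). Both groups carry the same genotype and were electroporated on the same embryonic day. Whether both received the same plasmids cannot be told from the labels. The labels name neither the promoters of the plasmids nor the strain, and do not say whether embryos were pooled or whether the libraries of a group came from separate embryos. P-values therefore measure only the spread between these libraries. The comparison asks whether cells sorted as NG2+ and GFAP+ differ in radial glia genes.

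Radial glia have their cell bodies in the ventricular zone and send a fibre to the pial surface along which newborn neurons migrate. They divide at the ventricle, renew themselves and give rise to intermediate progenitors, neurons and later glia. Fabp7, the brain fatty acid binding protein, and Slc1a3, the glutamate transporter GLAST, are among their most widely used markers, and both stay on in astrocytes.

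Library totals were 14256176 to 17569730 counts in NG2 and 12945436 to 16189859 in GFAP. Cspg4, which encodes NG2, stood at 4.45 to 8.13 CPM (counts scaled to library size with edgeR's TMM factors) in NG2 libraries and at 0.691 to 1.54 CPM in GFAP libraries, with no overlap. Gfap had 0 to 5 reads in NG2 and 0 to 7 reads in GFAP libraries, so it checks neither label. NG2 replicate 5 had reads for 18903 genes, against 22988 to 24444 in the other 9 libraries. By CPM it was the highest library for 19.8% of tested genes and the lowest for 27.5%. The next largest shares were 15.2% highest (NG2 replicate 3) and 13.2% lowest (GFAP replicate 2). Both groups are labelled as neural stem cells, yet 7 neuron genes summed to 4839.7 to 6775 CPM in NG2, against 3914 to 5137 CPM in GFAP libraries.

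Of the 8 tested members, 7 were lower in NG2 libraries on average and 1, Veph1, was higher, but 0 passed an adjusted p of 0.05 by edgeR in either direction. Over all tested genes 0.148% passed, 0.0741% higher and 0.0741% lower. At an unadjusted p under 0.05, 2 members were lower (Prom1 and Ddah1) and 0 higher, against 6.33% of tested genes lower at that threshold. The count of lower members fell to 0 when GFAP replicate 2 or NG2 replicate 3 was dropped. Limma-trend on log2(FPKM + 0.1) also gave 0. Dropping NG2 replicate 1, 2 or 4 or GFAP replicate 5 gave 1. Scaling by library size only, a filter of 5 CPM in 5 libraries or dropping GFAP replicate 4 gave 3. Dropping NG2 replicate 5 or using no filter on low counts gave 4. All other alternatives gave 1 or 2. Genes at that unadjusted threshold in either direction numbered 2069 of 16187 in the main test, and 2841 of 16469 when NG2 replicate 5 was dropped. They numbered 3149 of 31106 with no filter and 1544 of 16408 when GFAP replicate 4 was dropped. No share of lower genes stands beside the alternatives. By DESeq2 0 members were called, where 2.66% of all genes with an adjusted p were, and 1.03% of all were lower. The authors' deposited table gives adjusted p of 0.293 to 0.967 for the 8 and none for Pdpn, where 1.16% of all genes with one are under 0.05. The CPM of the groups overlapped in all 8, while 3.28% of tested genes had no overlap. The median log2 fold change (NG2 minus GFAP) of the 8 was -0.24, against -0.01 over all tested genes, of which 51.5% were below 0. That median came to -0.12 without GFAP replicate 2, -0.16 without NG2 replicate 2, -0.15 without NG2 replicate 3 and -0.11 with voom sample weights. The voom weights were 6.30 for NG2 replicate 4, 0.170 to 0.897 for the other NG2 libraries and 0.349 to 2.02 for GFAP libraries. The voom results thus lean on 1 NG2 library.

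**Figure D1:**
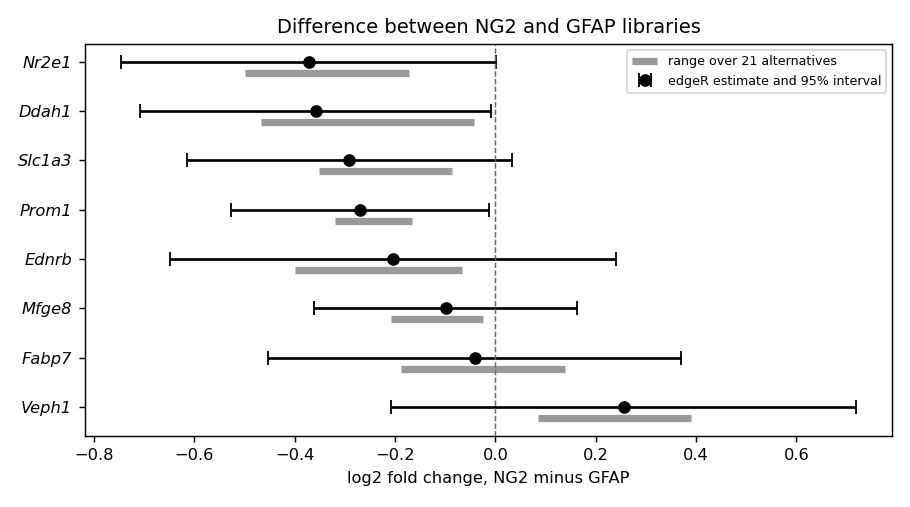
Log2 fold change of each tested radial glia gene, NG2 minus GFAP (x axis), by gene (y axis). Black points and bars are edgeR's estimates with 95% intervals, and grey bars are the range over 21 alternative analyses. Nr2e1 has the lowest estimate at -0.37 and Veph1 the highest at 0.26, and the grey bar of Fabp7 lies on both sides of 0.

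Per kilobase, Fabp7 was by far the most abundant member, and its level was close in the groups. It encodes a cytosolic carrier of long-chain fatty acids, and in mouse radial glia it is a known target of Notch signalling. Over the 10 libraries it averaged 414 ± 99.5 FPKM, reads scaled by gene length and library depth (SD, n = 10), which placed it 54th of 16187 tested genes by mean FPKM. Fabp7 (ENSMUSG00000019874, GRCm38 chromosome 10 plus strand, bases 57784881 to 57788450) had 718, 295, 479, 547 and 541 CPM in NG2 replicates 1 to 5, against 435, 677, 525, 420.3 and 596 CPM in GFAP replicates 1 to 5. NG2 replicates 1 and 2 were the highest and the lowest of all 10 libraries, so the NG2 range enclosed the whole GFAP range. The log2 fold change was -0.04 (SE 0.19, edgeR, Benjamini-Hochberg adjusted p = 0.957), and its 95% interval runs from 0.731-fold to 1.29-fold. The sign turned to positive without NG2 replicate 2 (0.11), without GFAP replicate 2 (0.06) or GFAP replicate 5 (0.01), and with voom sample weights (0.14).

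Upstream letters are shown for Fabp7, the member with the highest FPKM, and for Nr2e1, the member with the largest absolute fold change in the edgeR test of all libraries. They come from RefSeq's starts on GRCm38.p6 and end before the deposited gene span. Capitals mark TGGGAA on either strand, the core bound by RBPJ, the DNA-binding partner of Notch. Fabp7 is read on the plus strand of chr10:57784673-57784880 and Nr2e1 on the minus strand of chr10:42583633-42583840, both 5′ to 3′.
Fabp7: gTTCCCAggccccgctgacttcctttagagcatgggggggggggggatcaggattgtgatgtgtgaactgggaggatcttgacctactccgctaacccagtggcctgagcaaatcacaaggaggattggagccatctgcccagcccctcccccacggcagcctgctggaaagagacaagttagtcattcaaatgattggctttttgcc
Nr2e1: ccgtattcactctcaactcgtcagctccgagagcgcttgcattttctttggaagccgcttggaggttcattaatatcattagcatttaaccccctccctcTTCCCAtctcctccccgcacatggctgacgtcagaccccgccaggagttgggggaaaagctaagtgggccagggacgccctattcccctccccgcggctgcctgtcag
Each window holds the core once, as its reverse complement, near the far end of the searched window in Fabp7 and 150 bases before the RefSeq start in Nr2e1. All 9 members were matched in the promoter table, with 10 windows of 250 bases because Prom1 has a pair of starts. The core was found for 4 members, in 4 of the 10 windows: those of Fabp7, Nr2e1, Mfge8 and 1 of Prom1. That Prom1 window (bases 44101737 to 44101986) lies inside the deposited gene span, which ends at 44102032, and not upstream of it. The letter pattern TGGGAA was counted there all the same. This core is found in 21.6% of all 32851 such windows. The nuclear factor I motif TTGGCA stood in 1 member window, that of Veph1, and in 12.3% of all windows, and the homeodomain core TAATTA in 0 member windows and 4.84% of all, both searched on either strand. The 3 letter patterns did not overlap one another in the member windows. These are matches of letters only, and no binding was measured.

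**Figure D2:**
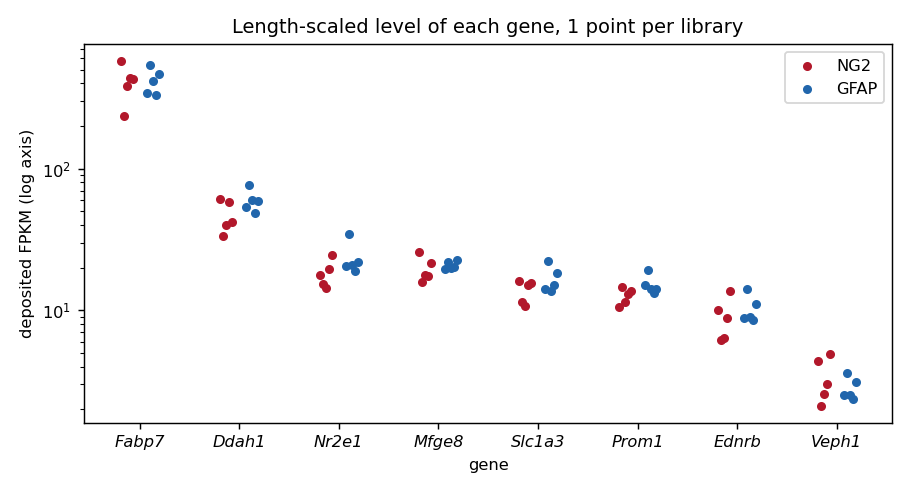
Deposited FPKM (log axis) of the 8 detected radial glia genes, 1 point for each library, NG2 left of GFAP. Fabp7 lies at 235 to 574 FPKM in every library and Veph1 at 2.13 to 4.92 FPKM, and Pdpn, at 0, is not drawn.

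The remaining members stood well below Fabp7 per kilobase. Ddah1 followed at 53.4 ± 12.7 FPKM, then Nr2e1 at 20.9 ± 5.73 and Mfge8 at 20.2 ± 2.85 FPKM (SD, n = 10 each). Nr2e1 was above Mfge8 in 5 of 10 libraries, so these neighbours in the order did not differ beyond their spread. Slc1a3 at 15.3 ± 3.30 and Prom1 at 13.9 ± 2.35 FPKM were also close, with Slc1a3 above in 6 of 10. Mfge8 was above Slc1a3 in 9 of 10 libraries. Ednrb at 9.69 ± 2.65 FPKM and Veph1 at 3.12 ± 0.924 FPKM came last, and all 10 libraries kept Prom1 above Ednrb and Ednrb above Veph1.

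Slc1a3 clears glutamate into glial cells. It averaged 119 ± 21.8 CPM in NG2, against 145 ± 30.6 CPM in GFAP libraries (SD, n = 5 each). NG2 libraries had 138, 98.0, 91.9, 129.8 and 135 CPM, against 124, 192, 119, 131 and 159 CPM in GFAP libraries, each in replicate order. NG2 replicates 2 and 3 lay below all other libraries and GFAP replicates 2 and 5 above them, while the remaining 6 libraries of both groups lay together. The log2 fold change was -0.29 (SE 0.15, edgeR, Benjamini-Hochberg adjusted p = 0.440), with a 95% interval from 0.653-fold to 1.02-fold, and it was -0.09 with voom sample weights. Of 5 other glutamate and neutral amino acid transporters of the family, 3 were positive and 2 negative with 0 called by edgeR (0 at an unadjusted p under 0.05, 0 by DESeq2). The most abundant, the neutral amino acid exchangers Slc1a4 and Slc1a5, differed by log2 0.08 (SE 0.13) and -0.26 (SE 0.16).

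Prom1 encodes prominin, a membrane glycoprotein that marks the apical protrusions and the primary cilium of neuroepithelial and radial glial cells. NG2 libraries had 76.4, 105, 82.3, 94.4 and 99.3 CPM, against 110.3, 140.4, 102, 96.5 and 103 CPM in GFAP libraries, in replicate order. NG2 replicate 2 was the third highest of the 10, the one member for which that library did not lie among the 3 lowest. Prom1 was at 0.829-fold in NG2 (95% interval 0.694 to 0.992; log2 -0.27, SE 0.12), with an unadjusted p of 0.0414 by edgeR and a Benjamini-Hochberg adjusted p of 0.370. Without GFAP replicate 2 the log2 fold change was -0.17. Prom1 shares 424 exon bases with Gm16401 on the opposite strand, which had 446 reads in all against 15377 for Prom1. Reads within the shared bases were not measured, so the Prom1 counts are uncertain to that extent. Its relative Prom2 had 71 reads in all and was not tested.

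Nr2e1, also called Tlx, is an orphan nuclear receptor that represses transcription and keeps neural stem cells undifferentiated. Its estimate and that of Ddah1 were the lowest of the members and differed by less than their errors. Ddah1 was the lower of the pair in several alternatives. Among them were those without NG2 replicate 1 (-0.47, against -0.36 for Nr2e1), NG2 replicate 4 (-0.44, against -0.40) and GFAP replicate 2 (-0.25, against -0.19). Nr2e1 (ENSMUSG00000019803, chromosome 10 minus strand, bases 42561963 to 42583632) had 65.7, 56.9, 53.4, 73.4 and 91.6 CPM in NG2 replicates 1 to 5, against 77.4, 130.4, 78.9, 71.7 and 83.1 CPM in GFAP replicates 1 to 5. GFAP replicate 2 stood far above the other 4 of its group, NG2 replicate 5 was the second highest of all, and the 3 lowest libraries were all NG2. The fold was 0.773 (95% interval 0.596 to 1.00; log2 -0.37, SE 0.18, edgeR, Benjamini-Hochberg adjusted p = 0.394), and the log2 value was -0.19 without GFAP replicate 2 and -0.17 with voom sample weights. Of 6 corepressors and partners of Nr2e1 (Hdac1, Hdac2, Hdac5, Kdm1a, Atn1 and Bcl11a), 3 were positive and 3 negative, with a median of -0.02 and 0 called by edgeR (0 at an unadjusted p under 0.05, 0 by DESeq2). The most abundant were the histone deacetylase Hdac2 at 941 ± 107 CPM in NG2, against 849.9 ± 22.03 CPM in GFAP, and the histone demethylase Kdm1a at 499.997 ± 45.5 CPM in NG2, against 499 ± 25.0 CPM in GFAP (SD, n = 5 each). Of the related receptors Nr2f1 and Nr2f2, which act in cortical area patterning, 0 were called and 0 had an unadjusted p under 0.05 by edgeR, with 0 called by DESeq2, and Nr2e3 had 5 reads in all. Nr2f1 stood at 137 CPM in either group (SD 34.3 in NG2, 19.4 in GFAP, n = 5), and Nr2f2 averaged 13.3 ± 5.93 CPM in NG2, against 10.3 ± 4.33 CPM in GFAP (SD, n = 5 each).

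Ednrb is the G protein-coupled receptor for endothelins. It lay at 26.4 to 58.7 CPM in NG2, against 37.0 to 60.8 CPM in GFAP libraries, with NG2 replicates 2 and 3 lowest and GFAP replicate 2 and NG2 replicate 5 highest. The log2 fold change was -0.20 (SE 0.21, edgeR, Benjamini-Hochberg adjusted p = 0.723; 95% interval 0.638-fold to 1.18-fold), and it ran from -0.40 (without NG2 replicate 5) to -0.07 (without GFAP replicate 2) over 21 alternative analyses. The endothelin ligands were near the limit of detection, with 31 reads in all for Edn1, 98 for Edn2 and 40 for Edn3. Of the other 3 genes of the system, the receptor Ednra and the converting enzymes Ece1 and Ece2, 1 was positive and 2 negative, with 0 called by edgeR (0 at an unadjusted p under 0.05, 0 by DESeq2). Ece1 averaged 9.50 ± 3.02 CPM in NG2, against 11.3 ± 1.95 CPM in GFAP, and Ece2 averaged 1.73 ± 1.05 CPM in NG2, against 2.24 ± 0.442 CPM in GFAP (SD, n = 5 each).

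Mfge8 encodes a secreted protein that bridges phosphatidylserine on dying cells to integrins. It varied least among the members, at 74.2 to 120.4 CPM in NG2, against 93.4 to 108 CPM in GFAP libraries. Its SD of log2 CPM over the 10 libraries was 0.20, against 0.24 to 0.40 for the other 7. The 3 lowest libraries were NG2 replicates 2, 4 and 3, and the highest was NG2 replicate 1. The log2 fold change was -0.10 (SE 0.12, edgeR, Benjamini-Hochberg adjusted p = 0.781; 95% interval 0.779-fold to 1.12-fold), and it was -0.21 without NG2 replicate 1 and -0.03 without NG2 replicate 2. Its integrin receptor subunits Itgav and Itgb5 were tested, with 0 called by edgeR (0 at an unadjusted p under 0.05, 0 by DESeq2). Itgb5 was at log2 0.66 (SE 0.35) and Itgav at -0.05 (SE 0.34), at means of 12.1 CPM for Itgb5 and 11.2 CPM for Itgav in NG2, against 7.67 CPM and 11.7 CPM in GFAP. Itgb3 had 144 reads in all.

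Ddah1 hydrolyses asymmetric dimethylarginine, an endogenous inhibitor of nitric oxide synthases. Ddah1 (ENSMUSG00000028194, chromosome 3 plus strand, bases 145758675 to 145894277) had 245, 134, 159.9, 232 and 170.4 CPM in NG2 libraries, against 218, 310.4, 241, 196 and 239.98 CPM in GFAP libraries, in replicate order. The 3 lowest libraries were NG2 replicates 2, 3 and 5, while NG2 replicate 1 was the second highest of all. The fold was 0.780 (95% interval 0.612 to 0.995; log2 -0.36, SE 0.16), with an unadjusted p of 0.0456 by edgeR and a Benjamini-Hochberg adjusted p of 0.382. With voom sample weights the log2 value was -0.04. Its paralog Ddah2 was more abundant, at 466 FPKM on average, and was at log2 0.05 (SE 0.11). The arginine methyltransferase Prmt1 (0.62, SE 0.26) and Nos1, the neuronal nitric oxide synthase, were positive too. Of these 3, 0 were called by edgeR or by DESeq2, and 1 was higher at an unadjusted p under 0.05 by edgeR. Over all tested genes, 12.8% passed that unadjusted threshold in either direction.

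Veph1 encodes a protein with a pleckstrin homology domain found in the ventricular zone. It was the member with the lowest detected level and the one with a positive estimate. NG2 libraries had 31.2, 15.1, 18.2, 21.7 and 35.2 CPM, against 18.4, 25.998, 18.1, 16.9 and 22.4 CPM in GFAP libraries, in replicate order. NG2 replicates 1 and 5 were the 2 highest and NG2 replicate 2 the lowest of the 10. The log2 fold change was 0.26 (SE 0.22, edgeR, Benjamini-Hochberg adjusted p = 0.663; 95% interval 0.866-fold to 1.65-fold), and it was 0.09 without NG2 replicate 5. Ptx3, on the opposite strand inside the Veph1 span, had more reads (6408 against 3435) but shares 0 exon bases with it. Gm37822 on the opposite strand shares 92 exon bases and had 44 reads.

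Pdpn encodes podoplanin, a mucin-type membrane glycoprotein that links to the cortical cytoskeleton through ezrin, radixin and moesin. It had 0 reads in each of the 10 libraries, which allows up to 0.171 to 0.210 CPM in a single NG2 library and up to 0.185 to 0.232 CPM in a single GFAP library (3 counts of the total, counting error only). The cause of the 0 was not tested, and these limits apply to reads assigned to the gene by the authors' counting, whose strand setting and annotation release are not stated. Pdpn (ENSMUSG00000028583, chromosome 4 minus strand, bases 143267431 to 143299564) overlaps no other gene in the deposited coordinates. Of 22058 protein-coding genes, 4405 (19.97%) likewise had 0 reads in all libraries. Within 200 kb, Prdm2 had 5317 reads and the 4 other protein-coding genes had 0. The podoplanin partners were detected. Of Ezr, Rdx, Msn, Cd44 and Cd9, 2 were positive and 3 negative, with 0 called by edgeR (0 at an unadjusted p under 0.05, 0 by DESeq2). Ezr averaged 275 ± 18.4 CPM in NG2, against 309.7 ± 19.8 CPM in GFAP, and Rdx averaged 186 ± 9.31 CPM in NG2, against 204 ± 14.4 CPM in GFAP (SD, n = 5 each).

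**Figure D3:**
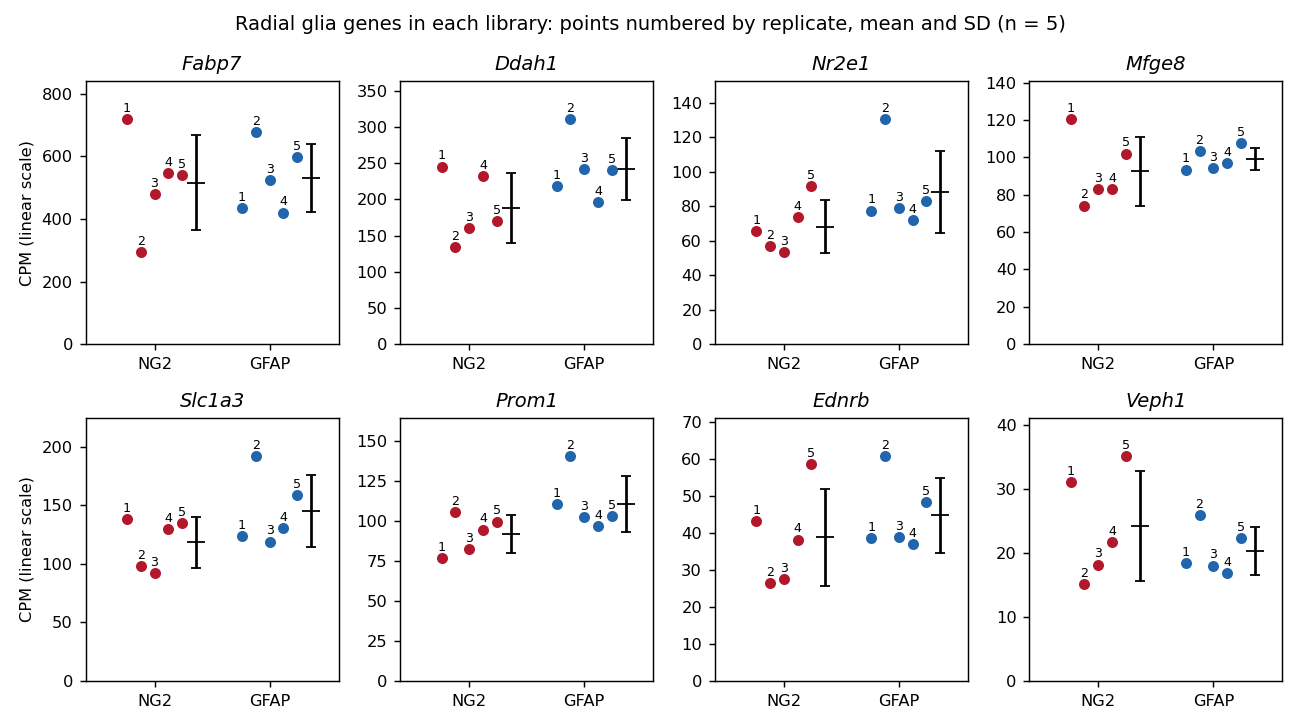
CPM of each detected radial glia gene in every library (y axis, from 0), with NG2 libraries left and GFAP libraries right. Points are numbered by replicate, and bars are the mean and SD of 5 libraries. The groups overlap in all 8 panels, and GFAP replicate 2 is the highest GFAP library in 7 of them.

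Single libraries stood high or low for many members at once. GFAP replicate 2 was the highest of the 10 libraries for 5 members (Slc1a3, Prom1, Nr2e1, Ednrb and Ddah1), and among the 3 highest for all 8. Over all tested genes it was the highest for 14.4% and among the 3 highest for 33.6%. Of the 8190 tested genes averaging at least 20 CPM, as all 8 members do, it was the highest for 17.4%. NG2 replicate 2 was the lowest for 5 members (Fabp7, Ednrb, Mfge8, Ddah1 and Veph1) and among the 3 lowest for 7. Among all tested genes it was the lowest for 12.8% and among the 3 lowest for 35.2%, and the lowest for 10.4% of those 8190. NG2 replicate 3 lay below the gene's mean over the 10 libraries for all 8, a count without a share over all tested genes beside it. That library was among the 3 lowest for 6 members and for 35.7% of all tested genes. Centring each gene's log2 CPM on its own mean and averaging over the 8 members gave 0.15, -0.45, -0.34, -0.02 and 0.18 in NG2 replicates 1 to 5, against -0.04, 0.48, -0.01, -0.11 and 0.17 in GFAP replicates 1 to 5. NG2 replicates 2 and 3 were thus the lowest and GFAP replicate 2 the highest, and the remaining 7 libraries of both groups lay between -0.11 and 0.18.

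**Figure D4:**
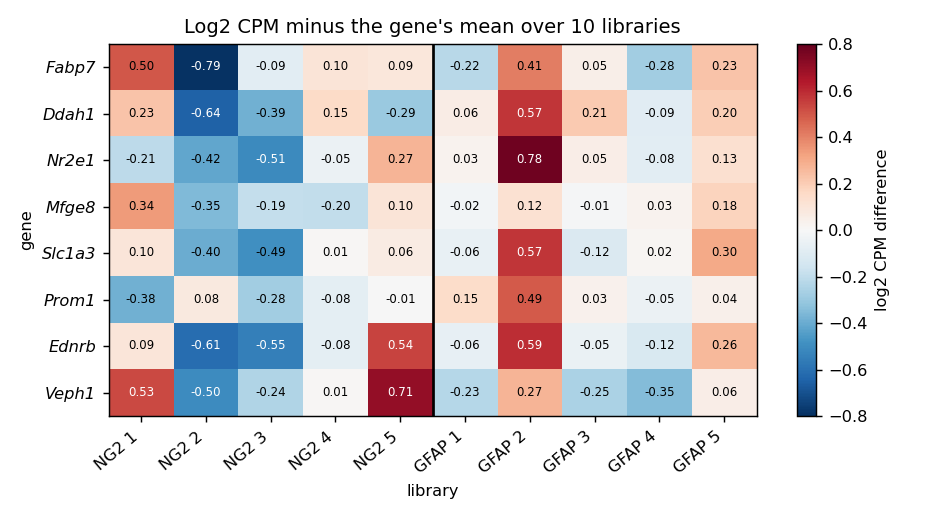
Log2 CPM of each radial glia gene minus the gene's mean over the 10 libraries, with genes in rows and libraries in columns, NG2 left of GFAP. Values are printed in the cells. The column of GFAP replicate 2 is positive for all 8 genes and that of NG2 replicate 3 negative for all 8, while NG2 replicate 2 is negative for 7.

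Members differed in how closely they followed the others. The likeness of a pair was measured as the root-mean-square difference of their centred log2 CPM over the 10 libraries. Slc1a3 and Nr2e1 were the closest pair at 0.16, and Prom1 and Veph1 the farthest at 0.45. Slc1a3 lay nearest to the mean profile of the members (0.10) and Prom1 farthest from it (0.26). Outside the members, the genes closest to the mean profile among 10223 protein-coding genes were Nfe2l2 (0.08), Nubpl (0.10), Lims1 (0.11), Smc2 (0.12) and Cenpi (0.12), where the median gene was at 0.34. Nfe2l2 is a transcription factor of the oxidative stress response, Nubpl an assembly factor of respiratory complex I, Lims1 an adaptor at focal adhesions, Smc2 a condensin subunit and Cenpi a centromere protein.

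A wider list of 24 radial glia and apical progenitor genes was read beside the members. All 24 were tested, 21 were negative and 3 positive, and the median log2 fold change was -0.41. Over all tested genes, 0.0741% fell by edgeR and 6.33% were lower at an unadjusted p under 0.05. By DESeq2 1.03% of all genes with an adjusted p fell. Of the 24, 1 fell by edgeR, 0 rose and 12 were lower at that unadjusted p. The gene that fell was Pard3, which organises apical cell polarity, with 41.7 ± 5.49 CPM in NG2, against 63.7 ± 3.98 CPM in GFAP (SD, n = 5 each; log2 -0.61, SE 0.11, edgeR, Benjamini-Hochberg adjusted p = 0.0429). The Pard3 call was lost in 11 of 21 alternatives, among them those without NG2 replicate 2, 3 or 4 and without any 1 of the 5 GFAP libraries (adjusted p up to 0.171 over all alternatives, log2 -0.67 to -0.45). By DESeq2 6 fell, namely Pard3 and, named after their values were seen, the transcription factors Pax6, Sox9, Emx2 and Lhx2 and the HLH factor Id4. Sox9 averaged 94.96 ± 17.4 CPM in NG2, against 141 ± 23.1 CPM in GFAP, and Pax6 averaged 98.5 ± 16.3 CPM in NG2, against 142 ± 25.99 CPM in GFAP (SD, n = 5 each). The fatty acid binding relatives of Fabp7 had positive estimates. Fabp5 averaged 731 ± 104 CPM in NG2, against 604 ± 35.99 CPM in GFAP (SD, n = 5 each; log2 0.28, SE 0.10, edgeR, Benjamini-Hochberg adjusted p = 0.292), and Fabp3 was at log2 0.49 (SE 0.25). Of the pair 0 were called by edgeR or DESeq2, and Fabp4 had 3 reads in all. By edgeR 1 of the pair had an unadjusted p under 0.05, where 12.8% of all tested genes did in either direction.

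Markers of the cells that radial glia give rise to also varied between libraries. Over all tested genes, 12.8% had an unadjusted p under 0.05 by edgeR in either direction, and 6.33% were lower. DESeq2 called 2.66% of all genes with an adjusted p in either direction, and 1.03% lower. The 5 intermediate progenitor genes were all negative (median -0.23) with 0 called by edgeR, 3 at an unadjusted p under 0.05 and 2 by DESeq2. Their sum was 1347 to 1512 CPM in NG2, against 1572 to 1982 CPM in GFAP libraries, highest in GFAP replicate 2. The 7 neuron genes were all positive (median 0.26) with 0 called by edgeR, 3 at an unadjusted p under 0.05 and 2 by DESeq2. Their sum, given with the library totals above, was lowest in GFAP replicate 2 and highest in NG2 replicate 3, with NG2 replicate 2 next. In bulk samples, fewer radial glia among the sorted cells and less of each transcript per radial glial cell cannot be told apart. The part of cell composition in the members' values was not tested.

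**Figure D5:**
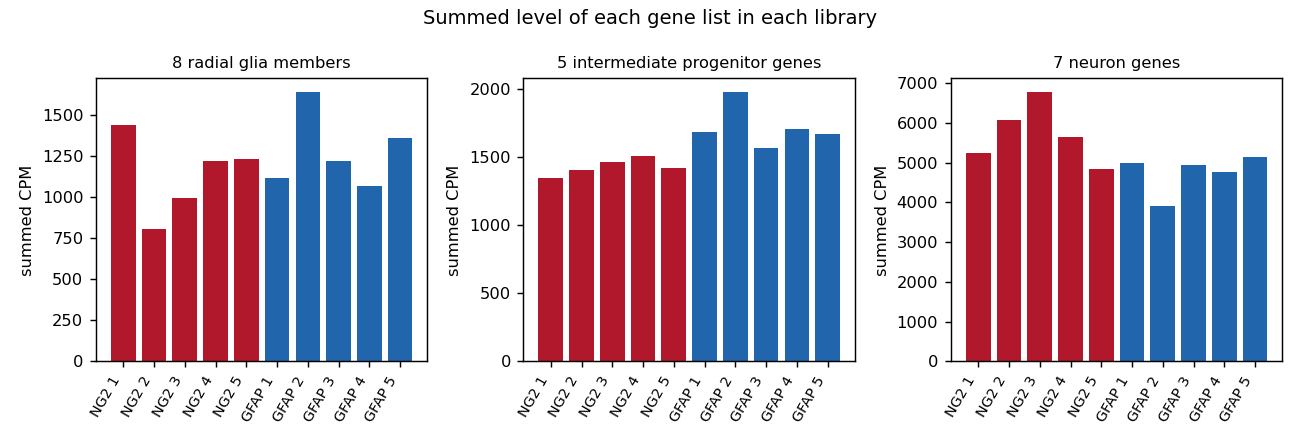
Summed CPM of the 8 detected radial glia members, of 5 intermediate progenitor genes and of 7 neuron genes (y axes, from 0) in each library, NG2 left of GFAP. GFAP replicate 2 has the highest sum of the members at 1640.3 CPM and the lowest sum of the neuron genes, and NG2 replicate 2 has the lowest sum of the members at 804 CPM.

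Several members are also used by other cell types, so their markers are given in the same libraries. Meningeal fibroblast genes (6 of 6 tested and negative, median -0.97) summed to 3.68 to 16.7 CPM in NG2, against 10.3 to 21.8 CPM in GFAP. Endothelial genes (4 of 5 tested, 1 positive, median -0.33) summed to 0.113 to 16.5 CPM in NG2, against 2.38 to 20.1 CPM in GFAP, and pericyte genes (3 of 4 tested, 2 positive, median 0.05) to 6.33 to 15.4 CPM in NG2, against 5.31 to 12.98 CPM in GFAP. Choroid plexus and ependymal genes (2 of 3 tested, both negative, median -1.54) summed to 1.38 to 41.4 CPM in NG2, against 0.749 to 258 CPM in GFAP. Microglial genes (6 of 6 tested and positive, median 0.98) summed to 22.9 to 303 CPM in NG2, against 35.4 to 139 CPM in GFAP. Of 4 astrocyte genes 2 were tested, both negative (median -0.53), and the 4 summed to 18.5 to 24.8 CPM in NG2, against 26.1 to 47.7 CPM in GFAP. Most of that sum was Gja1, at 19.7 ± 1.96 CPM in NG2, against 31.7 ± 8.62 CPM in GFAP (SD, n = 5 each). Gfap, Aqp4 and S100b averaged under 1 CPM in either group. Oligodendrocyte precursor genes (3 of 4 tested, 2 positive, median 0.17) summed to 1.04 to 12.6 CPM in NG2, against 3.79 to 7.68 CPM in GFAP. Of 4 melanoblast and neural crest genes 2 were tested, both negative (median -1.13). The 4 summed to 27.8 to 64.2 CPM in NG2, against 43.9 to 64.0 CPM in GFAP. Most of that sum was Kit, at 43.1 ± 13.4 CPM in NG2, against 48.0 ± 6.10 CPM in GFAP (log2 -0.15, SE 0.19). Mitf and Pmel averaged under 1 CPM and were not tested. Dct, a melanin synthesis enzyme, fell, at 1.86 ± 0.704 CPM in NG2, against 7.98 ± 3.73 CPM in GFAP (SD, n = 5 each). Its Benjamini-Hochberg adjusted p by edgeR was 0.0379. The Dct call was lost in 11 of 21 alternatives, among them those without NG2 replicate 1, 2 or 3 and without any 1 of the 5 GFAP libraries (adjusted p up to 0.148, log2 -2.32 to -0.80). Red blood cell genes (3 of 3 tested and positive, median 0.45) summed to 178 to 433 CPM in NG2, against 172 to 314 CPM in GFAP. None of these genes was at 0 in all libraries. In GFAP replicate 2, where the members were highest, the astrocyte sum was the highest of the 10 libraries at 47.7 CPM, of which Gja1 made 46.3 CPM. The meningeal sum in that library was the lowest of the GFAP libraries at 10.3 CPM. The astrocyte sum was lowest in NG2 replicate 3, at 18.5 CPM. Of the 9 sums, GFAP replicate 2 had the highest of all libraries in 1 and the lowest in 0. Apart from Dct, 0 genes of these 9 lists were called by edgeR. At an unadjusted p under 0.05, 1 meningeal, 1 choroid plexus and 1 astrocyte gene (Gja1) were lower, against 6.33% of all tested genes. DESeq2 called Dct and Gja1 lower, against 1.03% of all genes with an adjusted p. The part of these cells in the members' values was not tested.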

How the data were processed

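Bulk RNA-seq libraries of NG2+ and GFAP+ sorted cells (5 each) were compared. Per the labels' protocols, libraries were SMARTer-amplified, poly(A)-enriched and sequenced on a NovaSeq, with no molecular identifiers mentioned, so reads are not independent molecules. The authors deposited whole-number read counts per gene. The submitters' processing notes name HISAT2, featureCounts 1.5.0-p3 and GRCm38.p6, and neither strand setting nor annotation release is stated there. The deposited FPKM are those counts over gene length and a library constant, used here for levels between genes. Per the file headers, the authors' table holds a mean signal for each group, a log2 fold change and p-values, raw and adjusted, from a tool not named there.

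Groups were compared in edgeR 4.0.16 (R 4.3.3) by its quasi-likelihood F-test, with TMM scaling, its default filter and Benjamini-Hochberg adjustment over all 16187 tested genes, at 0.05. Fold changes are NG2 over GFAP, with a standard error taken from the fold change and edgeR's F statistic, and a 95% interval from that. CPM uses the TMM factors, and centred log2 CPM a prior count of 2. DESeq2 1.42.0, voom and limma-trend (limma 3.58.1) were alternatives, with other scalings, filters, a replicate block and each library left out. On simulated data with 200 changed genes, edgeR recovered 61 of 100 2-fold and 83 of 100 4-fold changes among 15799 genes for this comparison. It also called 6 unchanged genes. Recovery at the size of the members' estimates, 0.773-fold to 1.19-fold, was not simulated. Members and gene lists were chosen with earlier results of these data known. Named were all members, list genes called by edgeR (else the most abundant 1 or 2 tested), and the 5 genes most like the members. The naming rule also asked for proteins, which are not used here. Transcript spans and exons are those of GENCODE M21, whose spans for the 9 members equal the deposited ones. Counting intervals and floors cover counting error only.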

Additional observations from a re-analysis of the deposited data

Results flagged for a closer look

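Nr2e1 in GFAP replicate 2 stood at 130.4 CPM, while the other 4 libraries of its group lay at 71.7 to 83.1 CPM. The gap to the next library was 0.805 of the range of the group, above Dixon's critical value of 0.71 for 5 samples. It was the 1 such value in 16 groups of libraries examined over 8 genes, and chance flags about 1 in 20 groups. Without this library the log2 fold change of Nr2e1 (NG2 minus GFAP) was -0.19, against -0.37 with it.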

How the results depend on the processing

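Over 21 alternatives, 0 members were called in either direction, and 7 of the 8 tested members kept their sign: Slc1a3 (-0.35 to -0.09), Prom1 (-0.32 to -0.17), Nr2e1 (-0.50 to -0.17), Ednrb (-0.40 to -0.07), Mfge8 (-0.21 to -0.03), Ddah1 (-0.47 to -0.04) and Veph1 (0.09 to 0.39), as log2 fold changes. Fabp7 turned positive with voom sample weights (0.14) and ran from -0.19 to 0.11 with 1 library left out, being positive without NG2 replicate 2 (0.11), GFAP replicate 2 (0.06) or GFAP replicate 5 (0.01). Without GFAP replicate 2 and NG2 replicate 5 together, a setting chosen after seeing the data, it was 0.05. The cause was not tested. Pard3 and Dct kept their sign in all 21 and were each called in 10. The smallest adjusted p of a member was 0.116, for Nr2e1 in that setting. Over all tested genes, 12 were called higher and 12 lower in NG2. These counts were 58 and 37 with no filter on low counts, 212 and 134 with DESeq2, and 584 and 857 with voom sample weights. They were 109 and 154 without the pair of libraries named above. Limma-trend on log2(FPKM + 1) called 3 lower, and on log2(FPKM + 0.1) also 3. Leaving out 1 library gave 3 to 70 higher and 0 to 47 lower, with the highest counts without NG2 replicate 5. The replicate block left 1 higher and 0 lower, and 0 members, with an adjusted p of 0.16 for Pard3 and 0.133 for Dct. Deviations of same-numbered libraries had correlations of -0.02 to 0.08. No values for differently numbered libraries stand beside them, so they do not decide whether the numbers mark pairs. The main test used no pairing, and the replicate block was an alternative. At this depth and spread the 95% interval of Fabp7 still allows a fold from 0.731 to 1.29.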
